A study of Mus musculus with 22 samples.

Results

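Aminoacyl-tRNA synthetases are the enzymes that attach each amino acid to its transfer RNA. The 36 genes described here were picked by symbol, not by level, from the 24454 gene symbols of the count table, and all 36 were present. Of these, 20 encode cytosolic enzymes and 16, whose symbols end in 2, encode mitochondrial ones. *Gars* and *Kars*, each of which is known to give both a cytosolic and a mitochondrial enzyme, count here as cytosolic.

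Bulk RNA-seq was done on 22 libraries of 25 VE-Cadherin+ cells each, sorted from the aorta-gonad-mesonephros (AGM) of untreated C57BL/6 mouse embryos, the region where blood progenitors bud from endothelium. Surface CD44 and Kit split the cells into CD44Neg and CD44LoKitNeg, which are endothelial, and CD44LoKitPos and CD44High, the Pre-HSPC-I and Pre-HSPC-II stages of the endothelial-to-haematopoietic transition. There were 10 CD44Neg libraries, of which 4 were from E9.5, 3 from E10 and 3 from E11, and 6 CD44LoKitNeg libraries (1, 2 and 3 in that order). The 3 CD44LoKitPos libraries were from E9.5 (1) and E10 (2), and the 3 CD44High libraries from E11. The date in the library labels changes with the stage, so stage and date cannot be told apart, and no stage holds both CD44LoKitPos and CD44High. The labels do not say which libraries share an embryo or litter, so the p-values cover the spread between these libraries only, which may in part be technical.

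Each synthetase recognises 1 amino acid, activates it with ATP and transfers it to the matching tRNA, and the charged tRNA is then carried to the ribosome by an elongation factor. The enzymes fall into classes I and II, which differ in the fold of the catalytic domain, and several cytosolic ones are held with 3 scaffold proteins in a multi-synthetase complex. Mitochondria translate their own few mRNAs with a separate, nuclear-encoded set of enzymes. The transcription factor ATF4, which is induced when amino acids run short, is known to raise the transcription of many cytosolic synthetase genes, and MYC is known to drive genes of the translation machinery.

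Libraries held 3912350 to 8657546 counts, and a count of 0 allows up to 3 counts, equal to 0.347 to 0.815 normalised CPM (library-size-scaled counts, with TMM factors). This limit covers counting error only, since the reads carry no molecular identifiers. The 45S pre-rRNA transcript *Rn45s* took 1.92% to 23.9% of the counts of a library. The summed level of 8 endothelial marker genes was 3514 to 5916 normalised CPM in CD44Neg, 3717 to 8654 in CD44LoKitNeg, 764 to 1852 in CD44LoKitPos and 14.2 to 78.7 in CD44High. *Cdh5*, the gene of VE-Cadherin by which the cells were sorted, had no count in the 3 CD44High libraries. The summed level of 8 macrophage markers was 1743 to 4527 in these 3 libraries and at most 98.2 in the other 19. The adult globin genes *Hba-a1*, *Hba-a2*, *Hbb-bs* and *Hbb-bt* had no count in any library.

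Levels of different genes were set side by side as the mean normalised CPM per kilobase of the longest coding transcript in GENCODE M21. On this scale the cytosolic members of CD44Neg ranged from 13.9 (*Aars*) to 172 (*Kars*, the lysyl enzyme), with a median of 46.4. The mitochondrial members had a median of 8.36, from 1.40 for *Vars2* to 70.0 for *Lars2*, the mitochondrial leucyl enzyme. *Kars* was followed by *Dars* (124), *Rars* (113), *Nars* (107), *Gars* (107) and *Farsb* (106), and the libraries of *Kars* (138 to 219) overlapped those of *Dars* (65.6 to 181). In CD44LoKitNeg *Kars* had 60.8 per kilobase, below *Dars* (97.1) and *Farsb* (71.6), whereas *Lars2* had 94.0, close to the most abundant cytosolic member. *Dars* was the highest cytosolic member in CD44LoKitPos (201) and in CD44High (202).

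CD44LoKitNeg cells had less mRNA of cytosolic synthetases than CD44Neg cells. Together, the 20 cytosolic members reached 2812 to 4248 normalised CPM in the CD44Neg libraries (median 3507, n = 10) and 1404 to 2624 in CD44LoKitNeg (median 1946, n = 6). Every CD44LoKitNeg library was thus below every CD44Neg library. In bulk samples, fewer cells of a type and less RNA per cell cannot be told apart. The 16 mitochondrial members together reached 457 to 889 in CD44Neg and 528 to 851 in CD44LoKitNeg, and these ranges overlapped widely. *Lars2* made up much of this sum. Without it, a choice made after seeing the data, the other 15 members reached 343 to 494 in CD44Neg and 202 to 451 in CD44LoKitNeg, still overlapping. At E11 alone they reached 349 to 399 in CD44Neg and 202 to 336 in CD44LoKitNeg, which did not overlap, and at E9.5 and E10 343 to 494 and 359 to 451, which did.

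With edgeR's quasi-likelihood test over 16 libraries and Benjamini-Hochberg adjustment over 11022 genes, 9 of the 20 cytosolic members were lower in CD44LoKitNeg at an adjusted p under 0.01, none was higher, and the other 11 did not pass. Among all genes tested, 5.23% were called lower and 10.2% in either direction. All 20 cytosolic log2 fold changes were negative, from −1.69 to −0.12 with a median of −0.94, beside a median of 0.01 over all genes. At an unadjusted p under 0.05, 18 of the 20 cytosolic members passed, beside 3588 of the 11022 genes. None of the 16 mitochondrial members was called by edgeR, and 4 of them had an unadjusted p under 0.05. Their median was −0.15, with 11 negative and 5 positive values. The dot plot of the endothelial difference gives every member with its standard error (SE).

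**Figure D1:**
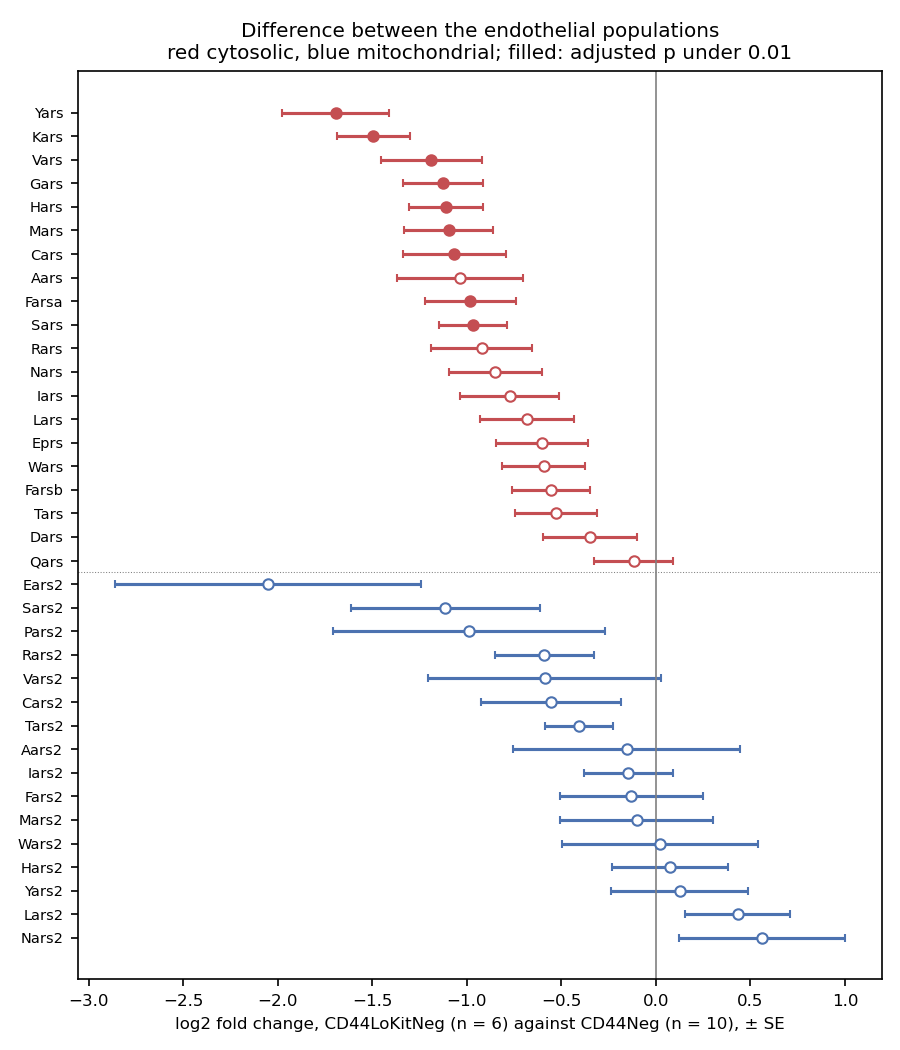
Log2 fold change of each of the 36 members between CD44LoKitNeg (n = 6) and CD44Neg (n = 10) on the horizontal axis, with SE bars, from edgeR. Red points are cytosolic and blue points mitochondrial members, and filled points have an adjusted p under 0.01. All 20 red points lie left of 0 and 9 are filled, while the blue points lie on both sides and none is filled.

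Among the class II enzymes, *Kars* had the lowest adjusted p of all members. It ranged from 302 to 479 normalised CPM in CD44Neg (median 379) and from 87.2 to 222 in CD44LoKitNeg (median 121). The groups did not overlap, and the 3 lowest CD44LoKitNeg values came from 2 E11 libraries and 1 E10 library. *Kars* fell by 1.49 on the log2 scale (SE 0.19, adjusted p = 2.6e-05, edgeR). *Hars*, the histidyl enzyme, ranged from 97.9 to 191 in CD44Neg (median 147) and from 50.3 to 97.3 in CD44LoKitNeg (median 62.2), so that the groups came close without overlapping. Its log2 fold change was −1.11 (SE 0.20, adjusted p = 0.000552, edgeR). *Hars* and *Hars2* are transcribed away from each other and overlap by 198 bases, and SMART-Seq2 does not mark the strand of a read, so reads in that stretch cannot be assigned.

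*Gars*, the glycyl enzyme, ranged from 143 to 328 normalised CPM in CD44Neg (median 263) and from 54.3 to 152 in CD44LoKitNeg (median 121), with an overlap at the edge. It fell by 1.13 on the log2 scale (SE 0.21, adjusted p = 0.000835, edgeR). *Sars*, the seryl enzyme, ranged from 88.8 to 172 in CD44Neg (median 129) and from 55.6 to 95.2 in CD44LoKitNeg (median 64.6). The highest CD44LoKitNeg library of *Sars* was just inside the CD44Neg range, and *Sars* fell by 0.97 on the log2 scale (SE 0.18, adjusted p = 0.000791, edgeR). *Farsa* encodes the catalytic chain of the cytosolic phenylalanyl enzyme. It ranged from 96.5 to 146 in CD44Neg (median 121) and from 27.3 to 95.7 in CD44LoKitNeg (median 65.0), and the groups met without overlapping (log2 fold change −0.98, SE 0.24, adjusted p = 0.00662, edgeR). Its partner chain *Farsb* ranged from 164 to 260 in CD44Neg and from 84.5 to 203 in CD44LoKitNeg. The log2 fold change of *Farsb* was −0.55 (SE 0.21, adjusted p = 0.063, edgeR), short of the threshold.

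Among the class I enzymes, *Yars*, the tyrosyl enzyme, had the most negative log2 fold change of the cytosolic members. It ranged from 99.7 to 176 normalised CPM in CD44Neg (median 144) and from 13.7 to 71.8 in CD44LoKitNeg (median 42.9). The groups were well apart, and the E11 libraries of CD44LoKitNeg gave its 2 lowest values and its highest, and *Yars* fell by 1.69 on the log2 scale (SE 0.28, adjusted p = 0.000317, edgeR). *Mars*, the methionyl enzyme that charges the initiator tRNA as well, ranged from 67.3 to 208 in CD44Neg (median 111) and from 33.1 to 65.6 in CD44LoKitNeg (median 57.0). These groups did not overlap either (log2 fold change −1.10, SE 0.24, adjusted p = 0.00257, edgeR).

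*Vars*, the valyl enzyme, ranged from 58.6 to 119 in CD44Neg (median 93.3) and from 17.5 to 65.7 in CD44LoKitNeg (median 37.8), a difference of −1.19 on the log2 scale (SE 0.27, adjusted p = 0.00359, edgeR). *Cars*, the cysteinyl enzyme and the least abundant cytosolic member by CPM, ranged from 41.8 to 83.2 in CD44Neg (median 60.2) and from 15 to 55.04 in CD44LoKitNeg (median 28.8). Both groups overlapped for these 2 genes, and *Cars* fell by 1.07 on the log2 scale (SE 0.27, adjusted p = 0.0088, edgeR). In all, 4 of 9 class I and 5 of 10 class II members were called lower, with medians of −0.92 and −0.97; *Eprs* carries an enzyme of each class and is in neither count.

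Of the 8 synthetases of the multi-synthetase complex, *Kars* and *Mars* were called lower, and the median of the 8, all negative, was −0.73. The remaining members had log2 fold changes of −0.92 (*Rars*, adjusted p = 0.0186), −0.77 (*Iars*, 0.042), −0.68 (*Lars*, 0.0571), −0.60 (*Eprs*, 0.0885), −0.35 (*Dars*, 0.367) and −0.12 (*Qars*, 0.757), all from edgeR. *Qars*, the glutaminyl enzyme, had means of 85.8 ± 23.5 normalised CPM (SD, n = 10) in CD44Neg and 78.6 ± 19.2 (SD, n = 6) in CD44LoKitNeg, with overlapping libraries. Of the scaffold genes *Aimp1*, *Aimp2* and *Eef1e1*, *Aimp2* fell, from 125 to 52.9 normalised CPM on average (log2 fold change −1.24, SE 0.28, adjusted p = 0.0034, edgeR). The 5 remaining cytosolic members outside the complex, which were not called, had log2 fold changes of −1.04 (*Aars*), −0.85 (*Nars*), −0.59 (*Wars*), −0.55 (*Farsb*) and −0.53 (*Tars*).

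Groups that did not overlap were seen for 5 cytosolic members (*Farsa*, *Hars*, *Kars*, *Mars* and *Yars*) and 1 mitochondrial member (*Sars2*), all lower in CD44LoKitNeg. Among all genes tested, 3.08% lay lower in this way. *Sars2*, the mitochondrial seryl enzyme, ranged from 17.6 to 32.5 normalised CPM in CD44Neg and from 11.1 to 14.2 in 5 CD44LoKitNeg libraries, and had 1 count in CD44LoKitNeg replicate 11. Its log2 fold change of −1.11 had a wide error (SE 0.50, adjusted p = 0.1245, edgeR). *Ears2*, the mitochondrial glutamyl enzyme, had the most negative value of all members, −2.05 (SE 0.81, adjusted p = 0.0799, edgeR). It had no count in CD44LoKitNeg replicates 11 and 13, 2.16 to 7.75 normalised CPM in the other 4 and 4.95 to 19.4 in CD44Neg.

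The heat map of all members by library shows the cytosolic block of low values in CD44LoKitNeg beside the mixed pattern of the mitochondrial members. For 17 pairs of a cytosolic gene and the mitochondrial gene for the same amino acid, the cytosolic value was the more negative in 14. Where the cytosolic gene was called, *Cars* (−1.07) stood beside *Cars2* (−0.56), *Farsa* (−0.98) beside *Fars2* (−0.13), *Hars* (−1.11) beside *Hars2* (0.07) and *Mars* (−1.10) beside *Mars2* (−0.10). *Sars* (−0.97) stood beside *Sars2* (−1.11), *Vars* (−1.19) beside *Vars2* (−0.59) and *Yars* (−1.69) beside *Yars2* (0.13). The exceptions were *Sars2*, and *Ears2* and *Pars2* (−0.99) against *Eprs* (−0.60), the fused glutamyl-prolyl enzyme. The difference within a pair was not tested.

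**Figure D2:**
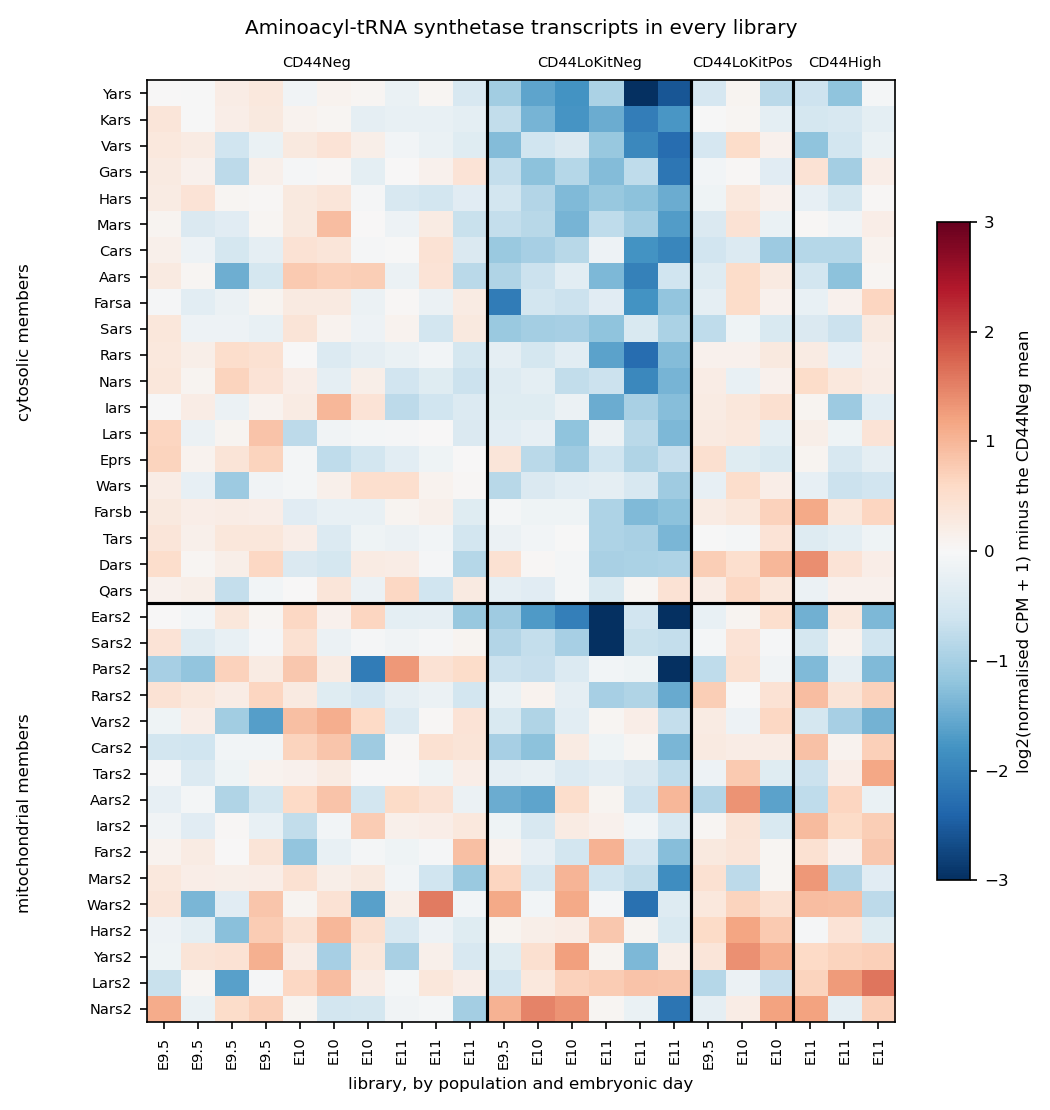
Log2 of normalised CPM plus a pseudocount of 1, minus the mean of the 10 CD44Neg libraries, for each of the 36 members (rows, by class and by the endothelial log2 fold change) in each of the 22 libraries (columns, by population and embryonic day). Blue is below and red above the CD44Neg mean, and colours stop at −3 and 3. The cytosolic rows are mostly blue in CD44LoKitNeg, with exceptions in *Dars*, *Eprs* and *Qars*, and mixed in CD44LoKitPos and CD44High.

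The difference was seen both at E11 and in the earlier libraries. At E11, the cytosolic sum was 1404 to 1772 in CD44LoKitNeg and 2812 to 3127 in CD44Neg (3 libraries each). At E9.5 and E10 it was 2119 to 2624 (n = 3) and 3273 to 4248 (n = 7). All 3 CD44LoKitNeg libraries were below all 3 CD44Neg libraries at E11 for 14 of 20 cytosolic and 5 of 16 mitochondrial members, beside 19.2% of all genes tested. The 1 mitochondrial member with all 3 above was *Lars2*, at 421, 445 and 454 in CD44LoKitNeg and 239, 285 and 314 in CD44Neg, beside 14.5% of genes. At E9.5 and E10 this held for 8 of 20 cytosolic and 2 of 16 mitochondrial members, beside 6.89% of genes. *Farsa*, *Hars*, *Kars*, *Mars* and *Yars* were in both cytosolic sets. With stage as a covariate, 11 members were called, all lower and all cytosolic, and for *Kars* the difference was −1.39 on the log2 scale (SE 0.14, adjusted p = 3.4e-06, edgeR). The share of all genes called in that fit is not given here, so its count is not compared with that of the main fit.

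Tested as an interaction over the 11 libraries of E10 and E11, the dependence of this difference on stage was not called for any member with edgeR, DESeq2's Wald test or limma voom. At an unadjusted p under 0.05, 5 of 36 members passed, beside 1322 of 12403 genes, and 0.00806% of genes were called. The values furthest from 0 were −2.29 for *Wars2* (SE 1.21, adjusted p = 0.539, edgeR) and 1.503 for *Vars2* (SE 1.45, adjusted p = 0.794, edgeR). With E11 alone, *Kars* was the only member called (log2 fold change −1.45, SE 0.20, adjusted p = 0.00306, edgeR), and with E10 alone (2 libraries against 3) none was. Within CD44LoKitNeg, the 3 E11 libraries were below the 3 earlier ones for *Dars*, *Farsb*, *Iars*, *Rars*, *Tars*, *Mars2*, *Nars2* and *Rars2*, 8 of 36 members beside 13.6% of genes. *Lars2* was above in all 3 (11.4% of genes). These stage values in CD44LoKitNeg are a description without a test.

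The calls for *Cars* and *Farsa* were the least stable. When each library was left out in turn, *Cars* kept its call only without CD44Neg replicate 3 or 6 or CD44LoKitNeg replicate 11 (log2 fold changes of −1.34 to −0.93 over the 16 fits). *Farsa* lost it without CD44Neg replicate 1, 3, 4, 7, 8 or 9 or CD44LoKitNeg replicate 12, 13 or 14 (−1.15 to −0.80), and *Vars* without CD44LoKitNeg replicate 12. *Gars*, *Hars*, *Kars*, *Mars*, *Sars* and *Yars* kept theirs in all 16 fits. The summed level of 8 neural markers was 23.9 to 114 normalised CPM in CD44Neg and 111 to 693 in CD44LoKitNeg, with *Elavl3* and *Neurog2* at 0 in both and *Sox2* at 0 in the latter. That of 8 mesenchymal markers was 0 to 36.7 and 4.19 to 98.2, with *Col1a1* at 0 in both. Their part in the result was not tested.

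Genes that feed or use charged tRNA were set beside the synthetases by lists drawn up for this purpose. In CD44LoKitNeg, 4 of 6 cytosolic elongation factor genes were lower (median −0.84). *Eef1g*, a subunit of the factor that recharges EEF1A with GTP, fell by 1.08 on the log2 scale (SE 0.14, adjusted p = 3.94e-05, edgeR). *Eef1d*, another subunit, fell by 1.22 (SE 0.18, adjusted p = 0.00013, edgeR). *Eif5a*, which helps ribosomes through stretches such as proline runs, fell by 1.40 (SE 0.22, adjusted p = 0.000167, edgeR). The fourth was *Eef2*. Of 32 tested genes for tRNA maturation and export, 3 were lower (median −0.76), among them *Nsun2* and *Mettl1*, and 2 of 24 RNA polymerase III genes were lower (median −0.24), namely *Polr1d* and *Gtf3c5*. In mitochondrial translation 1 of 13 was lower, the ribosome recycling factor *Mrrf* (median −0.37), and among editing factors and other charged-tRNA genes 1 of 9, *Aarsd1*, which clears mischarged alanyl-tRNA (median −0.22). None of these lists had a gene called higher. Beside the 5.23% of all genes called lower, shares such as 3 of 32, 2 of 24, 1 of 13 and 1 of 9 are not a result about those lists.

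Of 14 tested genes that, apart from the synthetases, are linked to ATF4, 2 were lower, and the median was −0.98. *Asns*, the asparagine synthetase, averaged 124 normalised CPM in CD44Neg and 19.7 in CD44LoKitNeg (log2 fold change −2.64, SE 0.42, adjusted p = 0.000212, edgeR). *Shmt2*, a mitochondrial serine hydroxymethyltransferase, fell by 1.18 (SE 0.27, adjusted p = 0.00369, edgeR). *Atf4* itself had −0.57 (adjusted p = 0.138, edgeR) and was not called. Of 7 genes of the MYC network, 1 was called, *Myc*, which averaged 100.1 normalised CPM in CD44Neg and 25.3 in CD44LoKitNeg (log2 fold change −1.97, SE 0.24, adjusted p = 1.71e-05, edgeR). The median over the 7 was 0.54.

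Promoter letters were read for the 26 members, 12 cytosolic and 14 mitochondrial, that have an entry among RefSeq windows of 300 bases (250 before and 50 after the start, build GRCm38.p6). The C/EBP-ATF response element, the letters through which ATF4 binds, was searched on both strands as TGATGNAA. It occurred in 5 of the 12 cytosolic windows (*Aars*, *Gars*, *Iars*, *Tars* and *Yars*), in 0 of the 14 mitochondrial windows and in 4.06% of 27025 windows of all genes. Among the called members with a window, *Gars* and *Yars* held it, whereas *Farsa*, *Kars* and *Sars* did not. Sites of these 5 genes, though not every match, are shown because the letters were found in cytosolic and in no mitochondrial windows, a difference that was not tested, each as 30 bases on the strand of the gene with the matching letters in capitals.
Yars: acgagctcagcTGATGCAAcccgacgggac
Gars: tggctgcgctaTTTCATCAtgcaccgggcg
Aars: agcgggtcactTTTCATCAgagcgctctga
Iars: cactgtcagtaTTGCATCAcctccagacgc
Tars: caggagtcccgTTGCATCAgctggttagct

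Counted from the RefSeq start, the matching letters in the sites shown began at +4 in *Yars*, −30 in *Gars*, +10 in *Aars*, +8 in *Iars* and −15 in *Tars*. The 30 bases lie at chr4:129189895-129189924 (+) for *Yars*, chr6:55037960-55037989 (+) for *Gars*, chr13:49682126-49682155 (+) for *Iars* and chr15:11399655-11399684 (−) for *Tars*. Those of *Aars* lie at chr8:111033840-111033869 (+). In *Gars*, *Aars*, *Iars* and *Tars* the element is on the strand opposite to the gene, so its letters appear reversed and complemented. A match is a description of the letters, and no binding was measured here.

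The E-box CACGTG, which reads the same on both strands and is bound by MYC with its partner MAX, occurred in *Aars*, *Farsb*, *Iars* and *Tars* (4 of 12 cytosolic windows), in *Ears2* (1 of 14 mitochondrial windows) and in 7.24% of all windows. The GC box GGGCGG was in 8 of 12 cytosolic and 11 of 14 mitochondrial windows (35.9% of all), and CCAAT in 6 of 12 and 6 of 14 (37.9% of all), both on either strand. Matches overlapped one another in 1 of the 26 windows. The 250 bases before the start are shown for a called member with the ATF4 letters (*Gars*), the phenylalanyl chains without them (*Farsa*, called lower, and *Farsb*, with an E-box) and the mitochondrial member most abundant per kilobase in CD44LoKitNeg (*Lars2*). In these 4 sequences, capitals mark any of the 4 motifs, and no annotated exon overlaps them in GENCODE M21.
Gars: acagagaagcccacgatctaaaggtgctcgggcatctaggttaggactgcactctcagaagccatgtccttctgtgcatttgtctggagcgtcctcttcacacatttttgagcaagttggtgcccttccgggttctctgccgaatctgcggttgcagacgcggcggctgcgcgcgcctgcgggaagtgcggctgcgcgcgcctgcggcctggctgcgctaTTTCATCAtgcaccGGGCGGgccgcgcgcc
Farsa: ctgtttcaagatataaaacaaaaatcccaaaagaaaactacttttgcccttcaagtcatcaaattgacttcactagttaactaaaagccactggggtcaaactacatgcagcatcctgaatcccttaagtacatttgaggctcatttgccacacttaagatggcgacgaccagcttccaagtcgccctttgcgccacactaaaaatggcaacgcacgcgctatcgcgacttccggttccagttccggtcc
Farsb: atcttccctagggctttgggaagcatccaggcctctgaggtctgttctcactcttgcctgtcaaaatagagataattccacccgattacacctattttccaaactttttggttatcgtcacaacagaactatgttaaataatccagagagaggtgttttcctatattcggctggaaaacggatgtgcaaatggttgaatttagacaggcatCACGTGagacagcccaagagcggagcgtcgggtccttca
Lars2: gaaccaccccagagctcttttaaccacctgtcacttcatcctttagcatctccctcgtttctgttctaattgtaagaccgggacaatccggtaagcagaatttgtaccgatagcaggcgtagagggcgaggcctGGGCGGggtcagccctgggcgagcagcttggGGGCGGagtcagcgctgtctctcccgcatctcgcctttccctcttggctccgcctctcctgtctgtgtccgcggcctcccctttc

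These stretches lie at chr6:55037751-55038000 (+) for *Gars*, chr8:84856736-84856985 (+) for *Farsa*, chr1:78488898-78489147 (−) for *Farsb* and chr9:123366677-123366926 (+) for *Lars2*. *Gars* holds the ATF4 letters and 1 GC box close to its start, *Farsb* 1 E-box, *Lars2* 2 GC boxes, and *Farsa* none of the 4 motifs.

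In CD44LoKitPos, the cytosolic synthetases stood above CD44LoKitNeg again. The cytosolic sums of the 3 CD44LoKitPos libraries were 3593, 3685 and 3807 normalised CPM, all above the 6 CD44LoKitNeg libraries and inside the range of CD44Neg. In edgeR's fit of all 22 libraries over 12949 genes, 2 of 36 members were higher in CD44LoKitPos than in CD44LoKitNeg, *Hars* and *Kars*, and none lower, beside 2.55% of genes higher and 4.26% in either direction. All 20 cytosolic log2 fold changes were positive, with a median of 1.003, and 14 of 16 mitochondrial ones were, with a median of 0.60. The median over all genes was −0.02. This comparison and the previous one share the 6 CD44LoKitNeg libraries. The summed level of 8 blood markers was 8.35 to 270 normalised CPM in CD44LoKitNeg and 410 to 807 in CD44LoKitPos, with none of the 8 at 0 throughout either population, beside 0 to 35.6 in CD44Neg, where *Gfi1b* and *Ptprc* had no count. The part of these markers in the result was not tested.

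*Kars* had 304, 367 and 385 normalised CPM in CD44LoKitPos, all above its highest CD44LoKitNeg library (222), and differed by 1.40 on the log2 scale (SE 0.23, adjusted p = 0.000615, edgeR). *Hars* had 131, 156 and 178, all above 97.3, the highest CD44LoKitNeg value, and differed by 1.20 (SE 0.24, adjusted p = 0.00333, edgeR). The value of *Hars2* beside it was 0.69 (adjusted p = 0.264, edgeR). Groups that did not overlap were found for 12 cytosolic and 2 mitochondrial members, all higher in CD44LoKitPos, beside 9.55% of genes. Besides *Kars* and *Hars* these were *Yars* (log2 fold change 1.33), *Farsa* (1.15), *Rars* (1.07), *Dars* (1.05), *Iars* (1.05), *Mars* (1.02), *Gars* (0.99), *Farsb* (0.98), *Nars* (0.85) and *Wars* (0.74), with adjusted p of 0.0155 to 0.0862 in edgeR. The mitochondrial ones were *Ears2* (2.15, adjusted p = 0.126) and *Sars2* (1.22, adjusted p = 0.178).

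With only these 2 populations in the fit, or with the E9.5 and E10 libraries alone, no member was called. Without CD44LoKitPos replicate 17 or 18 only *Kars* was called, and without CD44LoKitNeg replicate 14, 4 members were, the additions being *Farsb* and *Yars*. In the same comparison *Myc* (log2 fold change 1.92, SE 0.26, adjusted p = 0.000136, edgeR) was the one called of the 7 MYC network genes (median 0.59). Of 16 ATF4-linked genes, 2 were higher (median 0.92), *Phgdh*, which starts serine synthesis (3.94, SE 0.72, adjusted p = 0.00169, edgeR), and *Shmt2*. The fit of the endothelial populations tested 14 of these 16, so the counts do not cover the same genes. Other genes called, all higher, were *Eef1d*, *Eef1g* and *Eif5a* (3 of 6 elongation factors), *Nsun2*, *Mettl1* and *Rpp14* (3 of 32 tRNA maturation genes), *Tufm* and *Mrrf* (2 of 13), *Aarsd1* and *Dtd1* (2 of 9), *Polr1d* (1 of 24) and *Aimp2* (1 of 3 scaffold genes), beside 2.55% of all genes.

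CD44High cells also had more synthetase mRNA than CD44LoKitNeg cells. Their cytosolic sums were 2822, 3624 and 3953 normalised CPM and their mitochondrial sums 933, 1064 and 1279, the latter above all other 19 libraries. Without *Lars2* the mitochondrial sums were 456, 519 and 537 in CD44High, still above CD44LoKitNeg (202 to 451), but they overlapped CD44LoKitPos (444, 473 and 549) and CD44Neg (343 to 494). Against CD44LoKitNeg, 7 of 36 members were higher and none lower in edgeR's fit of 22 libraries, beside 7.79% of genes higher and 16% in either direction. All 20 cytosolic values were positive, with a median of 0.82, and 13 of 16 mitochondrial ones were, with a median of 0.50 (0 over all genes). This comparison again uses the same 6 CD44LoKitNeg libraries.

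*Farsb* had 268, 332 and 471 normalised CPM in CD44High, all above its highest CD44LoKitNeg library (203), a difference of 1.29 on the log2 scale (SE 0.27, adjusted p = 0.000783, edgeR). *Farsa*, the other chain, had 103, 132 and 190, all above 95.7 (log2 fold change 1.20, SE 0.31, adjusted p = 0.00493, edgeR). *Kars* had 256, 267 and 305, all above 222 (1.05, SE 0.23, adjusted p = 0.00127, edgeR). These 3 genes lay clear of CD44LoKitNeg, *Farsa* by the smallest gap. *Nars*, the asparaginyl enzyme, had 332, 354 and 412 against at most 229 (1.17, SE 0.30, adjusted p = 0.00523, edgeR). *Mars* had 101, 111 and 126 against at most 65.6 (1.09, SE 0.29, adjusted p = 0.00746, edgeR). *Gars* had 122, 286 and 337, and its lowest value was inside the CD44LoKitNeg range, which reached 152 (1.10, SE 0.29, adjusted p = 0.00669, edgeR).

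*Rars2*, the mitochondrial arginyl enzyme, was the mitochondrial member called here by edgeR. It had 85.9, 107 and 125 normalised CPM in CD44High and 22.1 to 70.2 in CD44LoKitNeg (log2 fold change 1.23, SE 0.32, adjusted p = 0.00616, edgeR). Its cytosolic counterpart *Rars* had 0.97 (adjusted p = 0.0287, edgeR). Beside *Farsa* and *Farsb*, the value of *Fars2* was 0.56, beside *Nars* that of *Nars2* was 0.00, and beside *Mars* that of *Mars2* was 0.40, none of them called. In all, 8 cytosolic and 3 mitochondrial members lay above CD44LoKitNeg without overlap, beside 13.6% of genes. Those not yet given were *Rars*, *Hars* (0.85), *Lars* (0.79), *Iars2* (0.88) and *Sars2* (0.77).

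The number of called members rested on single libraries. It was 1 without CD44High replicate 22, 2 without CD44High replicate 20 or 21 or CD44LoKitNeg replicate 13, and 3 without CD44LoKitNeg replicate 12. With only these 2 populations in the fit it was 0, and with E11 alone 1, *Farsb*. With stage as a covariate it was 10, a count given without the share of all genes called in that fit. The macrophage and endothelial markers given above separate CD44High from CD44LoKitNeg as well, as do the blood markers (731 to 888 in CD44High). The 8 neural markers summed to 5.43 to 14.1 in CD44High and 111 to 693 in CD44LoKitNeg. Sums that overlapped were those of 10 erythroid markers (48.1 to 255 and 13.7 to 61.2) and 8 mesenchymal markers (0.272 to 361 and 4.19 to 98.2). The part of all these markers in the result was not tested.

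Among the companion lists in CD44High against CD44LoKitNeg, 7 of 16 ATF4-linked genes were higher and none lower (median 2.02). The fit of the endothelial populations tested 14 of these 16. A gene that passed the filter only through libraries where it is high would raise this count and median. *Asns* had the lowest adjusted p of the 16, averaging 313 normalised CPM in CD44High and 19.7 in CD44LoKitNeg (log2 fold change 3.98, SE 0.55, adjusted p = 8.34e-06, edgeR). It was followed by *Shmt2* (2.01, SE 0.33, adjusted p = 8.15e-05, edgeR) and the amino acid transporter chain *Slc3a2* (1.51, SE 0.26, adjusted p = 0.000152, edgeR). *Myc* averaged 177 in CD44High (log2 fold change 2.81, SE 0.27, adjusted p = 5.18e-08, edgeR) and was the one called of the 7 network genes (median −0.29). Higher as well were 4 of 6 elongation factors (median 0.91), 4 of 32 tRNA maturation genes with 1 lower (median 0.79), 3 of 24 RNA polymerase III genes (0.32), 2 of 9 charged-tRNA genes (1.13) and 1 of 13 mitochondrial translation genes (0.89). Against the 7.79% of all genes called higher, the shares of the lists for tRNA maturation, RNA polymerase III and mitochondrial translation are not a result about those lists.

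Against CD44Neg, edgeR's fit of all 22 libraries called no member in CD44LoKitPos or in CD44High, but with stage as a covariate it called 4 in CD44High (*Dars*, *Farsb*, *Nars* and *Rars2*, all higher). The share of all genes called with the covariate is not given here. For CD44LoKitPos, the cytosolic median was 0.07 and the mitochondrial one 0.12, and 3 of 36 members had an unadjusted p under 0.05, beside 2633 of 12949 genes and 3.48% called. DESeq2's Wald test and limma voom also called none. The values furthest from 0 were −0.71 for *Cars* (SE 0.35, adjusted p = 0.256, edgeR) and 0.89 for *Yars2* (SE 0.41, adjusted p = 0.218, edgeR). These values do not show that the levels were equal: the SE ran from 0.22 (*Kars*) to 0.40 (*Aars*) for cytosolic and from 0.28 (*Iars2*) to 0.88 (*Ears2*) for mitochondrial members.

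The other members called between the endothelial populations are given here for the Pre-HSPC populations. In CD44LoKitPos *Yars* was 80.3, 98.8 and 149 normalised CPM, and in CD44High 60.6, 91.3 and 134, in both cases partly below the CD44Neg libraries. *Vars* was 62.3, 98.2 and 132 in CD44LoKitPos and 38.3, 60.4 and 78.0 in CD44High, and *Cars* was 28.1, 40.8 and 45.4 and 33.2, 33.2 and 65.7. *Sars* was 77.1, 95.0 and 120 in CD44LoKitPos and 83.8, 96.3 and 158 in CD44High. No member lay wholly outside the CD44Neg range in CD44LoKitPos, beside 9.66% of genes in either direction.

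In CD44LoKitPos *Farsa* was 99.97, 132 and 178, *Gars* 198, 236 and 253, *Mars* 79.9, 94.1 and 148, and *Nars* 242, 309 and 330, each overlapping CD44Neg (180 to 447 for *Nars*). *Farsb* was 252, 270 and 344 and *Rars2* 64.4, 88.7 and 109, where CD44Neg reached 260 and 103. These values lay partly inside the CD44Neg ranges. *Hars* was 98.9, 121 and 146 in CD44High, all inside its CD44Neg range of 97.9 to 191.

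For CD44High against CD44Neg, the cytosolic median was −0.25 and the mitochondrial one 0.35, with 5 of 36 members at an unadjusted p under 0.05, beside 4304 genes and 14.4% called. *Farsb* in CD44High (268, 332 and 471) was above all 10 CD44Neg libraries (164 to 260), a difference of 0.73 on the log2 scale (SE 0.25, adjusted p = 0.0327, edgeR). It was the one member whose groups did not overlap, beside 9.64% of genes lying higher in this way. *Vars2*, one of the least abundant members, had −1.42 (SE 0.79, adjusted p = 0.214, edgeR). DESeq2's Wald test called 1, *Lars2*, limma voom none, and without CD44Neg replicate 9 edgeR called 1, also *Lars2* (1.23, adjusted p = 0.00596). The plot of log2 fold changes in 6 population comparisons shows the cytosolic members below 0 in the first, above 0 where CD44LoKitNeg is the reference, and around 0 elsewhere.

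**Figure D3:**
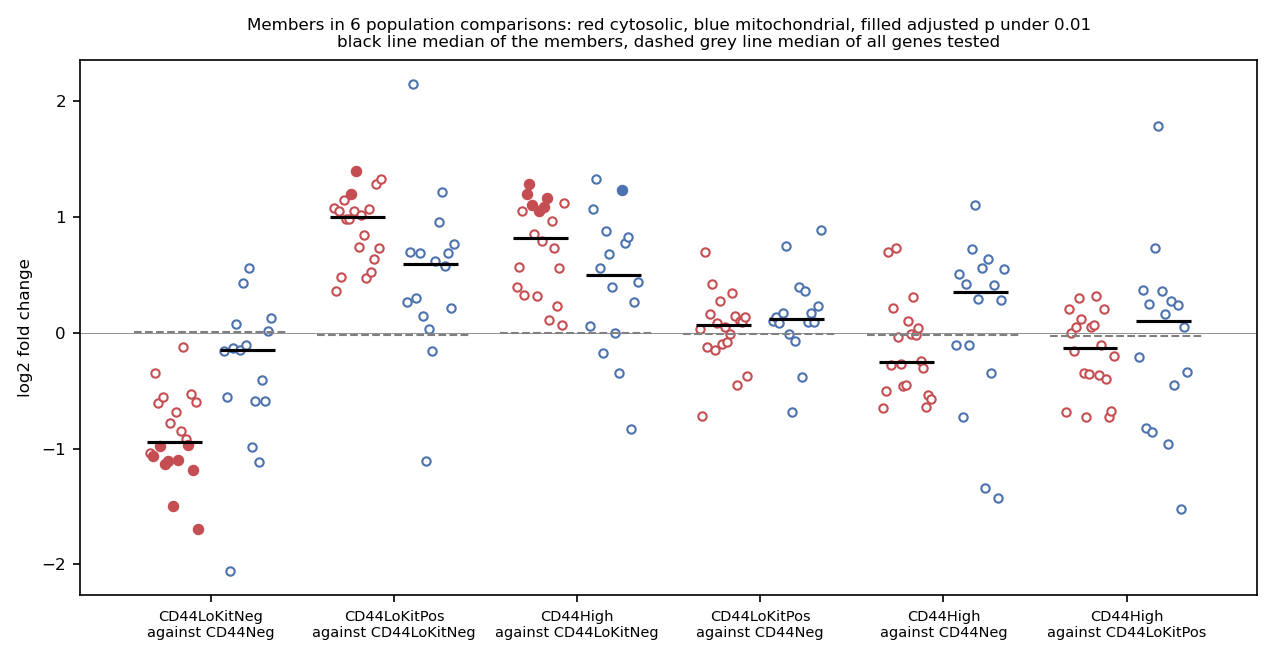
Log2 fold changes (vertical axis) of the 20 cytosolic (red) and 16 mitochondrial members (blue) in 6 comparisons of populations, from edgeR. Filled points have an adjusted p under 0.01, black lines are the medians of the members and dashed grey lines the medians of all genes tested. The cytosolic medians were −0.94, 1.003 and 0.82 in the 3 comparisons that involve CD44LoKitNeg, which share its 6 libraries, and 0.07, −0.25 and −0.13 in the other 3.

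Between CD44High and CD44LoKitPos no member was called by edgeR (3.01% of genes were), 2 had an unadjusted p under 0.05 beside 2306 of 12949 genes, and the medians were −0.13 for cytosolic and 0.11 for mitochondrial members. DESeq2's Wald test called 1, *Lars2*, and limma voom none. In this comparison, which sets E11 against E9.5 and E10, *Nars* (0.32), *Iars2* (0.73) and *Lars2* lay higher in CD44High without overlap. *Iars* (−0.73), *Tars* (−0.40), *Qars* (−0.36), *Hars2* (−0.86) and *Vars2* (−1.52) lay lower. These 8 of 36 members stand beside 23.9% of genes. With stage as a covariate the values of *Iars* and *Tars* turned positive (0.22 and 0.23).

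*Lars2*, the highest mitochondrial member per kilobase in CD44Neg, CD44LoKitNeg and CD44High, ranged from 80.1 to 476 normalised CPM in CD44Neg (median 271), from 169 to 454 in CD44LoKitNeg (median 410), and was 136, 155 and 219 in CD44LoKitPos and 396, 608 and 760 in CD44High. CD44High and CD44LoKitPos did not overlap (log2 fold change 1.79, SE 0.44, adjusted p = 0.0141, edgeR), and neither this value nor that against CD44Neg (1.11, SE 0.33, adjusted p = 0.0151, edgeR) passed. Against CD44Neg, CD44LoKitNeg had 0.43 (SE 0.28, adjusted p = 0.305, edgeR). The share of *Rn45s* moved in the same way in places: CD44Neg replicate 6 had the lowest share of all libraries (1.92%) and the lowest *Lars2*. CD44LoKitPos had shares of 6.82% to 9.26% and CD44High of 16.6% to 23.9%. The part of *Rn45s* in the *Lars2* values was not tested. With *Rn45s* left out of the counts, the log2 fold change of *Lars2* between CD44High and CD44LoKitPos was 1.80. That step changes the library totals but not the counts of *Lars2*, so it does not test this part.

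**Figure D4:**
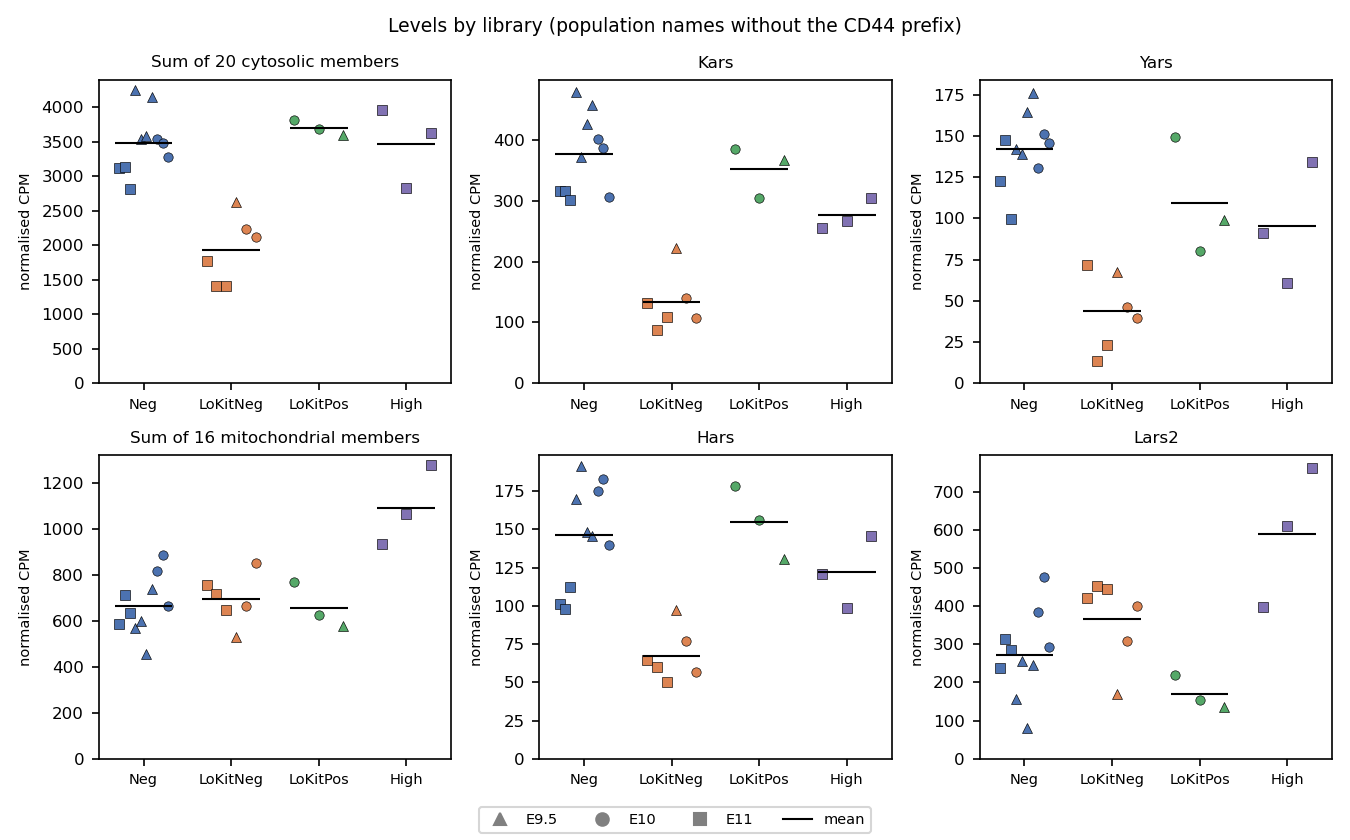
Normalised CPM (vertical axes, from 0) in each of the 22 libraries by population, for the sums of the cytosolic and mitochondrial members and for *Kars*, *Yars*, *Hars* and *Lars2*. Symbols give the embryonic day and black lines the mean. CD44LoKitNeg is the lowest group in the cytosolic sum, *Kars*, *Yars* and *Hars*, whereas CD44High is the highest in *Lars2* and in the mitochondrial sum that contains it (without *Lars2*, 456 to 537 in CD44High and 444 to 549 in CD44LoKitPos).

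Over development, the CD44Neg libraries allowed E9.5, E10 and E11 to be compared within 1 population. The cytosolic sum was 3530 to 4248 at E9.5 (n = 4), 3273 to 3533 at E10 (n = 3) and 2812 to 3127 at E11 (n = 3), so the E11 libraries were below all others. By edgeR no member was called between E11 and E9.5, where 0.684% of genes were, and 8 of 36 members had an unadjusted p under 0.05 beside 1925 of 11250 genes. *Nars* came nearest. It had 180, 191 and 220 at E11 and 298, 358, 380 and 447 at E9.5, without overlap (log2 fold change −0.89, SE 0.18, adjusted p = 0.0169, edgeR). DESeq2's Wald test and limma voom each called 1 member, *Nars*.

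In the same comparison 8 cytosolic and 3 mitochondrial members lay lower at E11 without overlap, beside 10.6% of genes. The other cytosolic ones were *Hars* (−0.64), *Rars* (−0.62), *Iars* (−0.61), *Eprs* (−0.59), *Tars* (−0.54), *Kars* (−0.46) and *Farsb* (−0.24). The mitochondrial ones were *Mars2* (−0.79), *Rars2* (−0.73) and *Ears2* (−0.65). *Iars2* (0.40) and *Cars2* (0.66) lay higher, beside 9.86% of genes. Of the companion lists, *Asns* fell (−1.24, SE 0.22, adjusted p = 0.00882, edgeR) and *Eef1a1*, which carries charged tRNA to the ribosome, rose (0.76, SE 0.12, adjusted p = 0.00575, edgeR).

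Between E10 and E9.5 no member was called by edgeR (0.0178% of genes were), and 9 of 36 had an unadjusted p under 0.05, beside 1709 of 11250 genes. *Eprs* had 170, 196 and 279 normalised CPM at E10 and 310, 378, 461 and 463 at E9.5 (log2 fold change −0.89, SE 0.20, adjusted p = 0.052, edgeR), and these groups did not overlap. *Fars2* (−0.63), *Rars* (−0.57) and *Farsb* (−0.47) also lay lower (7.87% of genes). *Iars* (0.56), *Aars* (1.05), *Lars2* (1.07) and *Vars2* (1.59) lay higher (7.36% of genes). DESeq2's Wald test called 1 member, *Eprs*, and limma voom none.

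Between E11 and E10 no gene at all was called by edgeR (0%), and 5 of 36 members had an unadjusted p under 0.05, beside 976 of 11250 genes. *Iars*, the isoleucyl enzyme, had 95.5, 109 and 122 normalised CPM at E11 and 194, 219 and 329 at E10, without overlap (log2 fold change −1.18, SE 0.22, adjusted p = 0.0745, edgeR). Lower without overlap, beside 6.93% of genes, were also *Ears2* (−1.09), *Hars2* (−1.01), *Vars2* (−0.92), *Mars2* (−0.90), *Aars* (−0.86), *Hars* (−0.67), *Nars* (−0.57) and *Vars* (−0.51). No member lay higher in this way, beside 7.88% of genes. DESeq2's Wald test called 1 member, *Iars*, and limma voom none. The 3 stage comparisons share their libraries pairwise.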

How the data were processed

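RNA of 22 libraries of 25 sorted cells was amplified by SMART-Seq2, which does not mark strand, and sequenced. The authors clipped adaptors, aligned the reads with RNA STAR to mm10 and deposited raw counts per gene symbol from HTSeq (FastQC is also in their processing notes); the annotation and strand setting are not given in the sources used here, and 11 of the 36 members overlap another coding gene model in GENCODE M21. Totals per library are given with the results, and 20 pairs that shared a population and a stage differed by 17.0 to 85.2 times the counting variance, so none was counted as a repeat.

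Counts were scaled by TMM and tested with edgeR 4.0.16 (glmQLFit and glmQLFTest, filterByExpr with a minimum count of 10 and a minimum total of 15, prior count 0.125; Benjamini-Hochberg adjustment over all genes tested; called at an adjusted p under 0.01). CD44LoKitNeg against CD44Neg used their 16 libraries, the other population comparisons all 22, the stages the CD44Neg libraries and the interaction the 11 endothelial libraries of E10 and E11. The SE is the log2 fold change divided by the square root of F. DESeq2 1.42.0, limma 3.58.1 (voom), other scalings, filters and thresholds, stage as a covariate, stage-matched fits and leaving out each library were the alternatives. R 4.3.3, Python 3.11.15, pandas 2.3.3 and matplotlib 3.10.9 were used, and the count script was tested on simulated data.

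The members and companion lists were chosen with earlier results of these data known. Members were named with values where they were called or where their groups did not overlap, or, where these were fewer than 4, where the change was largest in each direction, and genes of companion lists by lowest adjusted p, at most 3 with statistics per list. Promoter windows came from RefSeq. A few items are not reported here.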

Additional observations from a re-analysis of the deposited data

Results flagged for a closer look

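In 6 of 76 groups of 4 to 10 libraries, 1 library stood apart from the others by Dixon's test, which chance does in about 1 in 20 groups. *Eprs* was 374 normalised CPM in CD44LoKitNeg replicate 14, the E9.5 library, and 138 to 190 in the other 5. *Sars* was 95.2 in CD44LoKitNeg replicate 12 and 55.6 to 66.7 in the others, and *Sars2* was 0.134 in CD44LoKitNeg replicate 11 and 11.1 to 14.2 in the others. In CD44Neg, replicate 9 had *Iars* at 329 (95.5 to 219 in the other 9 libraries) and *Mars* at 208 (67.3 to 132), and replicate 7 had *Yars2* at 64.1 (14.5 to 40.9).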

How the results depend on the processing

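For CD44LoKitNeg against CD44Neg, the 9 calls became 7 to 13 under other thresholds, scalings, filters, tools, covariates and samples, all lower and all cytosolic, except 1 with E11 alone and 0 with E10 alone, where there were fewer libraries. CD44LoKitPos against CD44LoKitNeg gave 11 at an adjusted p under 0.05, 8 with limma voom, of which *Ears2* was mitochondrial, and 0 with only these populations or with E9.5 and E10 alone. CD44High against CD44LoKitNeg gave 14 at 0.05, 4 without a filter, 0 with only these populations and 1 with E11 alone. CD44High against CD44LoKitPos gave 1 at 0.05 and 1 with DESeq2's Wald test. CD44High against CD44Neg gave 2 at 0.05, 1 with the Wald test, 4 with stage as a covariate and 1 with only these populations. Of the stages, E11 against E9.5 gave 1 at 0.05, without a filter, with at least 10 counts in every library, with the Wald test and with voom, and each of the other 2 gave 1 without a filter and with the Wald test. Leaving out 1 library gave 6 to 9, 1 to 4 and 1 to 10 calls in the 3 comparisons with CD44LoKitNeg (in the order above), 0 to 1 for CD44High against CD44Neg and 0 to 0 in the other 6. In CD44High against CD44LoKitPos, *Iars* (0.22) and *Tars* (0.23) changed sign with stage as a covariate. Leaving out *Rn45s*, chosen after seeing the data, gave 8 calls in the first comparison and the same counts elsewhere. Except where fewer libraries were used, the cause was not tested. The shares of all genes called in these other fits are not given here, so the counts of members are a description only. No paired analysis was possible because the labels do not say which libraries share an embryo or litter. *Ears2*, *Pars2* and *Sars2* had 0 or 1 count in at least 1 of CD44LoKitNeg replicates 11 and 13, where 3 counts equal 0.403 and 0.464 normalised CPM. These libraries held 7161765 and 6323148 counts. CD44Neg replicate 1, with 3912350 counts, had 36 of *Ears2*, 89 of *Pars2* and 81 of *Sars2*. The cause of the low counts was not tested.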

Other observations

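Some companion genes not described above were called by edgeR in other comparisons. Between CD44LoKitPos and CD44Neg, *Phgdh* was higher (log2 fold change 2.99, SE 0.61, adjusted p = 0.00281, edgeR), the 1 called of 16 ATF4-linked genes. In CD44High against CD44Neg, *Prorsd1*, which clears mischarged prolyl-tRNA, was higher (1.78, SE 0.33, adjusted p = 0.000246, edgeR), as were *Eef1b2* (0.80, SE 0.16, adjusted p = 0.000848, edgeR), *Rpp40*, a subunit of RNase P (1.63, SE 0.37, adjusted p = 0.0019, edgeR), and *Phgdh* (2.52, SE 0.61, adjusted p = 0.00356, edgeR). *Tsen34*, a subunit of the tRNA splicing endonuclease, was lower in CD44High than in CD44Neg (−1.57, SE 0.21, adjusted p = 5.56e-06, edgeR), CD44LoKitNeg (−1.23, SE 0.22, adjusted p = 0.000151, edgeR) and CD44LoKitPos (−1.47, SE 0.24, adjusted p = 0.000245, edgeR). It averaged 41.4 normalised CPM in CD44High and 122, 97.3 and 114 in the other populations in that order, and these 3 comparisons share the CD44High libraries. *Mycn*, a relative of *Myc*, averaged 260 in CD44LoKitPos and 5.85 in CD44High (−5.46, SE 1.19, adjusted p = 0.00484, edgeR).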
